A study of Mus musculus with 6 samples.

Results

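The 51 genes described here encode the centromere, the kinetochore, the spindle assembly checkpoint and the chromosomal passenger complex. They were taken by name: every gene whose symbol is Cenp followed by a letter, plus a list of named kinetochore and checkpoint genes. The rule uses symbols and no measured value, but it was written with earlier results of these data known. They are 51 of the 11922 genes in the counts, and all 51 passed the low-count filter that left 11759 genes to test. Splenic CD8+ T cells of C57BL6/J mice were activated through CD3 and CD28 and grown with interleukin-2 at 100 U/ml, for 72 hours with activating beads and for 4 days after them. Vehicle cultures received water. AOA cultures received 0.25 mM aminooxyacetic acid, an inhibitor of enzymes whose cofactor is PLP (active vitamin B6). RNA was taken on day 7 from 3 cultures per group, and the same 3 mouse donors gave cells to both groups, so replicate numbers are mouse numbers. The whole culture was sequenced in bulk, so more dividing cells and more RNA of these genes per cell cannot be told apart.

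The kinetochore is the protein structure that joins a chromosome to the mitotic spindle. A nucleosome that holds the histone variant CENP-A marks the centromere, and the constitutive centromere-associated network (CCAN) assembles on it. Together the KNL1, MIS12 and NDC80 complexes bind the CCAN on their inner side and spindle microtubules on their outer side. Kinetochores without a microtubule activate the spindle assembly checkpoint, which holds back the anaphase-promoting complex, while the Aurora B kinase of the chromosomal passenger complex releases wrong attachments. Most of these genes are transcribed mainly in cycling cells, with a peak for many of them in G2 and mitosis, and activated CD8+ T cells divide fast.

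Total counts ranged from 12881962 to 18934869 in the vehicle libraries and from 18696114 to 21997078 in the AOA libraries. Vehicle replicate 2 and AOA replicate 1 stood apart from the other libraries of their groups, with a chi-square per gene of 55.2 and 59.9 for vehicle replicate 2 and of 70.8 and 64.2 for AOA replicate 1, against 10.03 between vehicle replicates 1 and 3 and 10.48 between AOA replicates 2 and 3. All 5 CD8 T cell markers were detected, at a summed 2908 to 3737 CPM (counts scaled to library size) with vehicle and 3994 to 4644 CPM with AOA. Summed markers of CD4 T cells (4 of 4 detected, 158 to 210 CPM against 33.0 to 54.3 CPM) and myeloid cells (3 of 7 detected, 40.8 to 54.2 CPM against 0.873 to 3.33 CPM) were lower with AOA, and 3 of the 4 CD4 markers and the 1 tested myeloid marker fell. Of the other lists, 2 of 5 CD8 markers rose, 1 of 2 tested NK markers fell, and of 5 tested B cell markers 1 rose and 1 fell. NK markers (3 of 4 detected) summed to 145 to 308 CPM with vehicle and 128 to 213 CPM with AOA, B cell markers (5 of 6) to 13.9 to 18.4 CPM and 23.1 to 30.9 CPM, and 0 of 5 erythroid markers had a value. No marker with a value was at 0 in all 6 libraries. The part of other cells in the results below was not tested.

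Kinetochore and checkpoint transcripts were higher in AOA-treated cells. Of the 51 genes, 45 rose by edgeR's quasi-likelihood test at an adjusted p under 0.05, 6 did not pass it and 0 fell. Over all tested genes 26.2% were called higher and 26.8% lower. The count of genes that fell was also 0 at an unadjusted p under 0.05 and by DESeq2 and limma. The median log2 fold change of the 51 genes was 2.15, with a range of -0.15 to 3.71, and that of all tested genes was -0.02. A log2 fold change of at least 1 went with the call in 41 of the 51 genes and in 12.1% of all tested genes. In 28 genes the fold change was 4 or more, and in 5 genes (Spc25, Spc24, Cenpi, Nuf2 and Birc5) it was 8 or more. The smallest adjusted p of the 51 genes was 1.26e-05.

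Together the 51 genes made up 0.128%, 0.119% and 0.144% of the counts of vehicle replicates 1, 2 and 3, and 0.472%, 0.422% and 0.482% of those of AOA replicates 1, 2 and 3. Their summed level was 1310, 1153 and 1484 CPM with vehicle and 4771, 4175 and 4753 CPM with AOA. The groups did not overlap in either sum. In 47 of the 51 genes all AOA libraries were above all vehicle libraries, which held for 31% of all tested genes. AOA libraries were below all vehicle libraries in 0 of the 51. Within mice, AOA exceeded vehicle in 50 of 51 genes in mouse 1, in 48 in mouse 2 and in 51 in mouse 3. The median log2 ratio within a mouse was 2.00, 2.01 and 2.11.

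**Figure D1:**
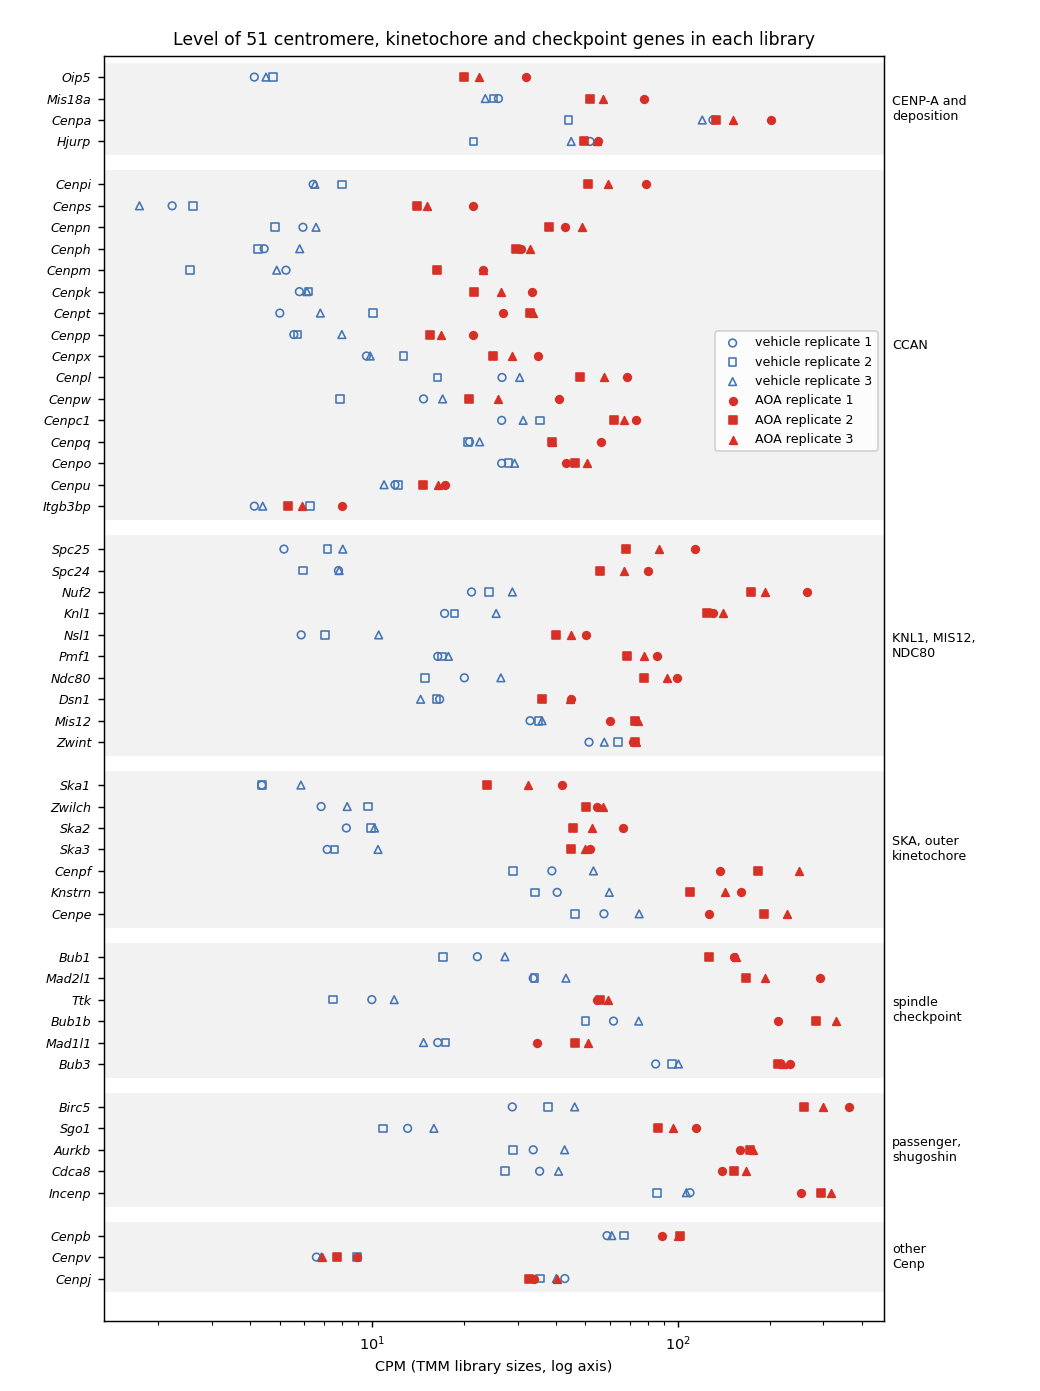
Level of each of the 51 genes in CPM (log axis) in the 3 vehicle libraries (open blue) and the 3 AOA libraries (filled red), with 1 symbol shape per mouse and genes grouped by role. Levels can be compared along a row but not between rows, since CPM is not divided by gene length. In 47 rows every red symbol is to the right of every blue symbol.

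Promoter windows of the genes are shown because these genes rose together. RefSeq windows of GRCm38.p6, from 250 bases before to 50 after the annotated start, matched 45 of the 51 genes. Nsl1, Incenp, Zwilch, Aurkb, Spc24 and Ska1 had no window. Genes of late cell cycle phases often carry the cell cycle genes homology region (CHR), whose letters are TTTGAA, near the start, with CCAAT boxes upstream of it, and genes of earlier phases often carry E2F sites. On either strand, the CHR letters were in 16 of the 45 windows (35.6%), against 12.0% of the windows of 9438 tested genes and 18.1% of those of all 27025 genes that have a RefSeq window. CCAAT was in 27 windows (60.0%, against 39.2% and 37.9%). Any of the E2F letters TTTCCCGC, TTTGGCGC, TTTGCCGC and TTTCGCGC was in 6 windows (13.3%, against 4.40% and 2.32%). CHR and CCAAT were both present in 13 windows (28.9%, against 5.09% and 7.12%). The CHR and CCAAT letters can share bases, as they do in Cenpw.

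The higher share of CHR letters lay downstream of the annotated start. They were found at or after the start only in 10 of 45 windows (22.2%), against 1.37% of those of tested genes. Upstream of the start they were in 6 windows (13.3%), against 10.6%. Of the genes with the largest changes, Spc25 held CHR letters, Cenpi, Nuf2 and Birc5 had windows without them, and Spc24 had no window. The sequences below show CHR letters near the start in Spc25 and in other genes of the main complexes. They also show the 2 CHR genes that did not pass the test, Cenpa and Hjurp. All were chosen after the values of their genes had been seen. Capitals mark CHR (TTTGAA, or TTCAAA on the other strand) and CCAAT (or ATTGG), and each is written 5′ to 3′ on the strand of its gene.
Spc25: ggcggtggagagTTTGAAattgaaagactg
Knl1: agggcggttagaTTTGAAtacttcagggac
Ttk: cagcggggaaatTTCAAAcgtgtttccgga
Ndc80: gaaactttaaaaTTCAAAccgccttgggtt
Cenpa: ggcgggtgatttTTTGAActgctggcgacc
Hjurp: tgcgtaaatactTTTGAAagaccctattag
Cenpn: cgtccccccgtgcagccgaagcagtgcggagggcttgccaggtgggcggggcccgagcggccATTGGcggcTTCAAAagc
Bub3: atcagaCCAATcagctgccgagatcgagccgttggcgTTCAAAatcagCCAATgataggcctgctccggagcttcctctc

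In GRCm38.p6 these stretches are at chr2:69206172-69206201 (minus strand) for Spc25, chr2:119047138-119047167 (plus) for Knl1, chr9:83834684-83834713 (plus) for Ttk and chr17:71526811-71526840 (minus) for Ndc80. Those of Cenpa and Hjurp are at chr5:30666890-30666919 (plus) and chr1:88277543-88277572 (minus). In these 6 genes the first CHR base is base 25, 32, 8, 30, 17 and 20 from the start of the window's transcript, in the order printed. The Cenpn and Bub3 stretches end at the base before the annotated start, at chr8:116921660-116921739 (plus) and chr7:131560290-131560369 (plus), with the CHR 9 and 43 bases upstream of the start. The RefSeq gene spans of Ttk, Cenpa, Hjurp, Cenpn and Bub3 begin earlier than the start used for the window, so a base upstream of that start can be transcribed from another start. The median log2 fold change was 2.17 in the 16 genes with CHR letters, of which 14 rose. It was 1.47 in the 29 genes without them, of which 25 rose. For CCAAT it was 2.15 in 27 genes with the letters and 1.55 in 18 without. For E2F it was lower with the letters, 1.36 in 6 genes against 2.13 in 39 without. These differences were not tested. A match of letters does not show that a factor binds there.

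**Figure D2:**
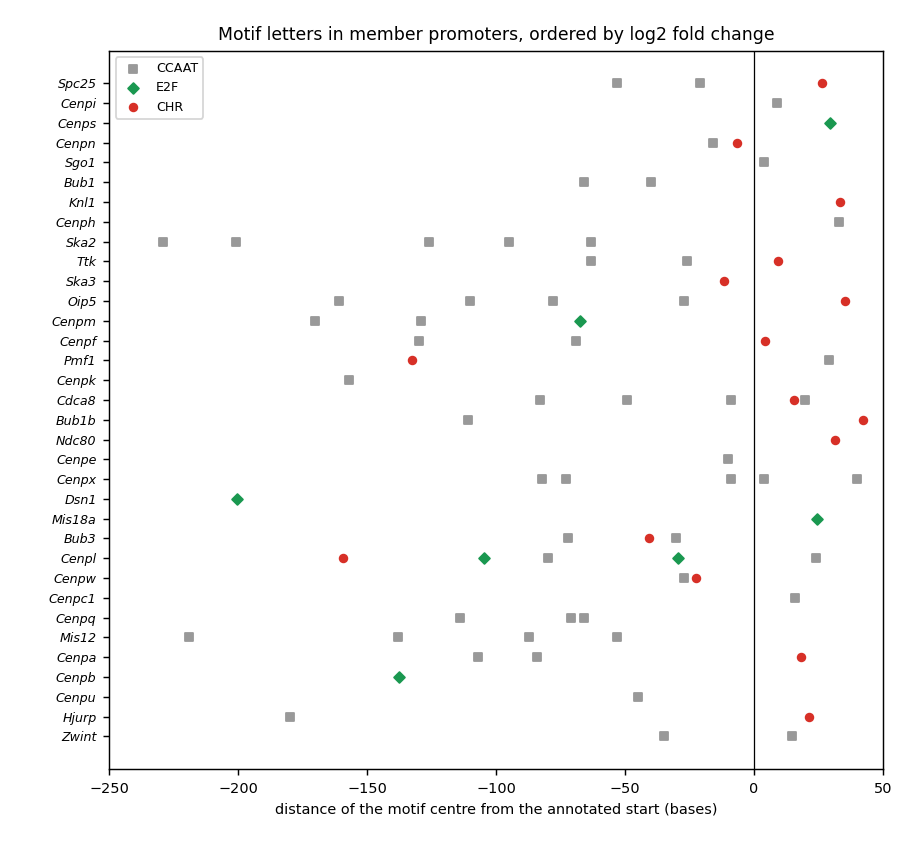
Distance in bases between the annotated start and the centre of each CCAAT (grey squares), E2F (green diamonds) and CHR (red circles) match, for the members with at least 1 match, ordered from the largest log2 fold change at the top. In the plot 10 of the 16 genes with CHR letters have them only to the right of the start line, and CCAAT matches lie mostly to its left.

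CENP-A and its deposition factors divided into genes that rose and genes that did not pass the test. Oip5 and Mis18a encode subunits of the Mis18 complex, which prepares centromeres for new CENP-A. Oip5 was at 4.13, 4.75 and 4.51 CPM in vehicle replicates 1, 2 and 3 and at 32.0, 20.0 and 22.4 CPM in AOA replicates 1, 2 and 3. It rose by a log2 fold change of 2.47 (SE 0.22, edgeR adjusted p = 4.58e-05). Mis18a, at 26.0, 25.0 and 23.5 CPM with vehicle and 77.5, 51.7 and 56.8 CPM with AOA, rose by 1.32 (SE 0.17, edgeR adjusted p = 0.000306). Both groups were well apart in these genes, with AOA replicate 1 the highest.

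Cenpa itself was at 131, 44.0 and 121 CPM with vehicle and at 203, 134 and 152 CPM with AOA. The lowest AOA library was just above the highest vehicle library, and vehicle replicate 2 was at 0.35 of the mean of vehicle replicates 1 and 3. Its log2 fold change was 0.73 (95% interval -0.06 to 1.52, edgeR adjusted p = 0.107). With the mouse as a replicate block it was 0.85 (edgeR adjusted p = 0.0102), and by DESeq2 it was 0.74 (adjusted p = 0.0438). Without vehicle replicate 2 it was 0.41 (edgeR adjusted p = 0.0827). Hjurp, the chaperone that places CENP-A, was at 51.7, 21.5 and 44.9 CPM with vehicle and at 54.8, 49.4 and 54.5 CPM with AOA. The groups overlapped, and vehicle replicate 2 alone was far below the other 5 libraries. The log2 fold change of Hjurp was 0.43 (95% interval -0.18 to 1.04, edgeR adjusted p = 0.212). Without vehicle replicate 2 it was 0.17 (edgeR adjusted p = 0.313), and without vehicle replicate 1 it was 0.70 (edgeR adjusted p = 0.0738). The intervals of Cenpa and Hjurp end below the estimate of 2.47 for Oip5, but both overlap the 95% interval of Mis18a (0.93 to 1.71).

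In the CCAN, 15 of 16 genes rose and the median log2 fold change was 1.47. The subunits changed by very different amounts. The CENP-H, CENP-I, CENP-K and CENP-M subunits form a subcomplex that joins the network together. Cenpi was at 6.43, 7.99 and 6.51 CPM with vehicle and at 79.1, 51.0 and 59.1 CPM with AOA. Its log2 fold change of 3.17 (SE 0.21, edgeR adjusted p = 1.40e-05) was the largest of the CCAN. Cenph was between 4.25 and 5.81 CPM with vehicle and between 29.7 and 32.9 CPM with AOA, a log2 fold change of 2.68, and Cenpm and Cenpk rose by 2.31 and 2.17. All 4 were low in vehicle cells, below 8 CPM in every library.

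The histone-fold subunits CENP-T, CENP-W, CENP-S and CENP-X bind DNA together. Cenps was at 2.22, 2.60 and 1.74 CPM with vehicle and at 21.4, 14.1 and 15.1 CPM with AOA (log2 fold change 2.95, SE 0.26, edgeR adjusted p = 4.15e-05). Cenpt was at 5.00, 10.1 and 6.79 CPM with vehicle and 26.9, 33.0 and 33.6 CPM with AOA, a log2 fold change of 2.09. Their partner genes Cenpx and Cenpw rose by 1.46 and 1.14, and the 95% intervals of Cenpt (1.53 to 2.65) and Cenpw (0.42 to 1.86) overlapped. Cenpw was at 14.8, 7.86 and 17.0 CPM with vehicle and at 40.8, 20.8 and 25.8 CPM with AOA. Its adjusted p by edgeR was 0.0147, and without AOA replicate 1, its highest library, the log2 fold change was 0.82 and the edgeR adjusted p 0.0800.

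Cenpn and Cenpl encode partners that recognise the CENP-A nucleosome and link it to the network. Cenpn was at 5.95, 4.82 and 6.57 CPM with vehicle and at 42.8, 38.0 and 48.7 CPM with AOA (log2 fold change 2.90, SE 0.18, edgeR adjusted p = 1.38e-05). Cenpl rose by 1.24, and Cenpc1, the gene of the CENP-C scaffold that reaches from CENP-A to the MIS12 complex, by 1.11 (61.8 to 73.3 CPM with AOA, 26.6 to 35.4 CPM with vehicle). The 95% intervals of Cenpn (2.49 to 3.31) and Cenpl (0.72 to 1.76) did not meet. Genes set side by side by their intervals above, here and below were chosen after their values had been seen. The difference between 2 genes was not tested.

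The CENP-O, CENP-P, CENP-Q, CENP-U and CENP-R subunits form a peripheral CCAN subcomplex, which held the 3 smallest estimates of the network. Cenpp rose by 1.47, Cenpq by 1.06 and Cenpo by 0.73. Cenpu was at 11.9, 12.2 and 11.0 CPM with vehicle and at 17.3, 14.7 and 16.5 CPM with AOA. Its log2 fold change was 0.47 (SE 0.16, edgeR adjusted p = 0.0348). The call was lost with the mouse as a replicate block (edgeR adjusted p = 0.0586) and when vehicle replicate 1 or 3 or any AOA replicate was left out (edgeR adjusted p between 0.0501 and 0.115). Itgb3bp, the gene of CENP-R, was at 4.13, 6.28 and 4.40 CPM with vehicle and at 7.999, 5.34 and 5.90 CPM with AOA. The groups overlapped, and its log2 fold change was 0.38 (95% interval -0.22 to 0.98, edgeR adjusted p = 0.259). It was 0.19 without AOA replicate 1 (edgeR adjusted p = 0.578) and 0.62 without vehicle replicate 2 (edgeR adjusted p = 0.0585). In GENCODE vM21, Cenpu shared 31.6% of its exon bases with Primpol and Cenpo 22.3% with Adcy3, each on the opposite strand. Oip5 shared 15.9% with Nusap1, Cenpp 12.3% with Ippk and Ska2 10.1% with Gm11491, and other members under 10%. The libraries are stranded, but the strand setting of counting was not stated in the sources used here, so the share of reads from the partner genes is unknown.

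The KNL1, MIS12 and NDC80 complexes included the largest change of the 51 genes, and 9 of their 10 genes rose, with a median log2 fold change of 2.35. NDC80 is a rod of 4 subunits. Spc25 was at 5.16, 7.16 and 8.03 CPM with vehicle and at 114, 67.6 and 86.7 CPM with AOA. Its log2 fold change of 3.71 (SE 0.24, edgeR adjusted p = 1.40e-05) was number 40 of the 11759 tested genes when ordered from the highest to the lowest log2 fold change, and among the 51 genes it had the largest log2 ratio in each mouse (4.45, 3.19 and 3.47). Its partner Spc24 was at 7.78, 5.96 and 7.82 CPM with vehicle and at 79.9, 55.8 and 66.7 CPM with AOA (log2 fold change 3.23, SE 0.19, edgeR adjusted p = 1.26e-05). No vehicle library came near an AOA library in either gene.

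The end of the rod that touches the microtubule is made of NUF2 and NDC80. Nuf2 was at 21.2, 24.2 and 28.8 CPM with vehicle and at 265, 174 and 194 CPM with AOA, a log2 fold change of 3.09 (SE 0.20, edgeR adjusted p = 1.40e-05). Ndc80 was at 20.1, 14.9 and 26.4 CPM with vehicle and at 99.7, 77.9 and 92.0 CPM with AOA, a log2 fold change of 2.13 (SE 0.21, edgeR adjusted p = 7.44e-05). The 95% interval of Ndc80 (1.66 to 2.61) ended just below that of Nuf2 (2.63 to 3.54).

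Knl1, the platform on which checkpoint proteins gather, was at 17.3, 18.6 and 25.5 CPM with vehicle and at 130, 125 and 141 CPM with AOA (log2 fold change 2.68, SE 0.17, edgeR adjusted p = 1.40e-05). In the MIS12 complex, which ties the outer to the inner kinetochore, Nsl1 rose by 2.51, Pmf1 by 2.18, Dsn1 by 1.41 and Mis12 by 0.99. Mis12 had the smallest called change of these complexes, with 32.9 to 36.0 CPM in vehicle and 60.0 to 74.4 CPM in AOA libraries. Zwint, which links KNL1 to the dynein-recruiting ROD complex, was at 51.3, 63.8 and 57.6 CPM with vehicle and at 71.7, 72.4 and 73.0 CPM with AOA. The groups did not overlap, but the log2 fold change of 0.33 (95% interval 0.04 to 0.62) did not pass the test (edgeR adjusted p = 0.0542). It passed without vehicle replicate 2 (0.44, edgeR adjusted p = 0.0155) and with no low-count filter (0.36, edgeR adjusted p = 0.0431).

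All 7 genes of the SKA complex and the outer kinetochore rose, with a median log2 fold change of 2.53. The SKA complex helps NDC80 to hold on to shortening microtubules. Ska1 was at 4.37, 4.37 and 5.86 CPM with vehicle and at 42.0, 23.8 and 32.3 CPM with AOA (log2 fold change 2.74, SE 0.25, edgeR adjusted p = 4.48e-05). Ska2 and Ska3 both rose by 2.53. Zwilch, a subunit of the ROD complex, rose by 2.70, from 6.83, 9.70 and 8.31 CPM to 54.3, 50.3 and 56.9 CPM.

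Cenpe encodes a kinesin that carries chromosomes along the spindle, and Cenpf a very long coiled-coil protein of the outer kinetochore. Cenpf was at 38.8, 28.9 and 53.1 CPM with vehicle and at 137, 183 and 249 CPM with AOA, a log2 fold change of 2.24 (SE 0.27, edgeR adjusted p = 0.000203). Cenpe was at 57.5, 46.2 and 74.9 CPM with vehicle and at 127, 192 and 228 CPM with AOA, a log2 fold change of 1.61 (SE 0.24, edgeR adjusted p = 0.000643). AOA replicate 1 was the lowest AOA library in both, unlike in most of the other genes. Knstrn, whose product sits with these proteins at spindle and kinetochore, rose by 1.62.

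All 6 checkpoint genes rose, with a median log2 fold change of 2.34. Ttk encodes the MPS1 kinase that starts the checkpoint signal, and it was at 9.9999, 7.48 and 11.8 CPM with vehicle and at 54.3, 55.9 and 59.4 CPM with AOA (log2 fold change 2.53, SE 0.18, edgeR adjusted p = 1.79e-05). Bub1, a kinase recruited by KNL1, was at 22.1, 17.1 and 27.3 CPM with vehicle and at 153, 127 and 155 CPM with AOA (log2 fold change 2.71, SE 0.19, edgeR adjusted p = 1.60e-05). In both genes the lowest AOA library was far above the highest vehicle library.

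The mitotic checkpoint complex that inhibits CDC20 is built from MAD2, BUBR1 and BUB3. Mad2l1, the gene of MAD2, was at 33.7, 34.0 and 43.2 CPM with vehicle and at 293, 167 and 193 CPM with AOA (log2 fold change 2.56, SE 0.23, edgeR adjusted p = 4.26e-05). Bub1b, the gene of BUBR1, was at 61.7, 50.02 and 74.6 CPM with vehicle and at 213, 284 and 330 CPM with AOA (log2 fold change 2.15, SE 0.21, edgeR adjusted p = 6.79e-05). AOA replicate 1 was the highest library for Mad2l1 and the lowest AOA library for Bub1b. Bub3 changed least, from 84.8, 96.0 and 101 CPM to 233, 213 and 221 CPM, a log2 fold change of 1.24 (SE 0.13, edgeR adjusted p = 9.93e-05). Mad1l1, whose product holds MAD2 at the kinetochore, rose by 1.44.

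All 5 genes of the chromosomal passenger complex and its partner shugoshin rose, with a median log2 fold change of 2.27. Birc5 encodes survivin, the subunit that brings the complex to the centromere. It was at 28.8, 37.7 and 46.1 CPM with vehicle and at 363, 260 and 299 CPM with AOA, a log2 fold change of 3.03 (SE 0.21, edgeR adjusted p = 1.51e-05). Aurkb, the gene of the Aurora B kinase, was at 33.7, 29.0 and 42.7 CPM with vehicle and at 160, 173 and 177 CPM with AOA (log2 fold change 2.27, SE 0.17, edgeR adjusted p = 1.79e-05). Cdca8, the gene of borealin, rose by 2.15.

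Incenp, the scaffold of the complex, started higher than the others and changed less. It was at 110, 85.7 and 107 CPM with vehicle and at 253, 295 and 318 CPM with AOA, a log2 fold change of 1.52 (SE 0.16, edgeR adjusted p = 9.06e-05). Sgo1, which protects centromeric cohesin until anaphase, rose by 2.89, from 13.1, 10.9 and 16.0 CPM to 115, 86.4 and 96.5 CPM. The 95% intervals of Birc5 (2.56 to 3.51) and Aurkb (1.90 to 2.64) did not meet that of Incenp (1.17 to 1.87). That of Cdca8 (1.76 to 2.54) overlapped it.

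The remaining 3 genes carry the name Cenp but are no subunits of the complexes above. Cenpb, which binds a DNA motif of centromeric repeats, was at 58.8, 66.8 and 61.0 CPM with vehicle and at 88.8, 102 and 101 CPM with AOA, and rose by 0.64 (SE 0.13, edgeR adjusted p = 0.00246). Cenpj, which encodes a centriole protein, was at 42.8, 35.5 and 40.2 CPM with vehicle and at 33.9, 32.6 and 40.2 CPM with AOA. Its log2 fold change was -0.15 (95% interval -0.48 to 0.18, edgeR adjusted p = 0.407), the only estimate below 0 among the 51. Cenpv was at 6.59, 8.94 and 6.84 CPM with vehicle and at 8.96, 7.72 and 6.86 CPM with AOA. Its log2 fold change was 0.07 (95% interval -0.42 to 0.57, edgeR adjusted p = 0.797), and it was -0.031 without AOA replicate 1. The groups overlapped in Cenpj and Cenpv.

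**Figure D3:**
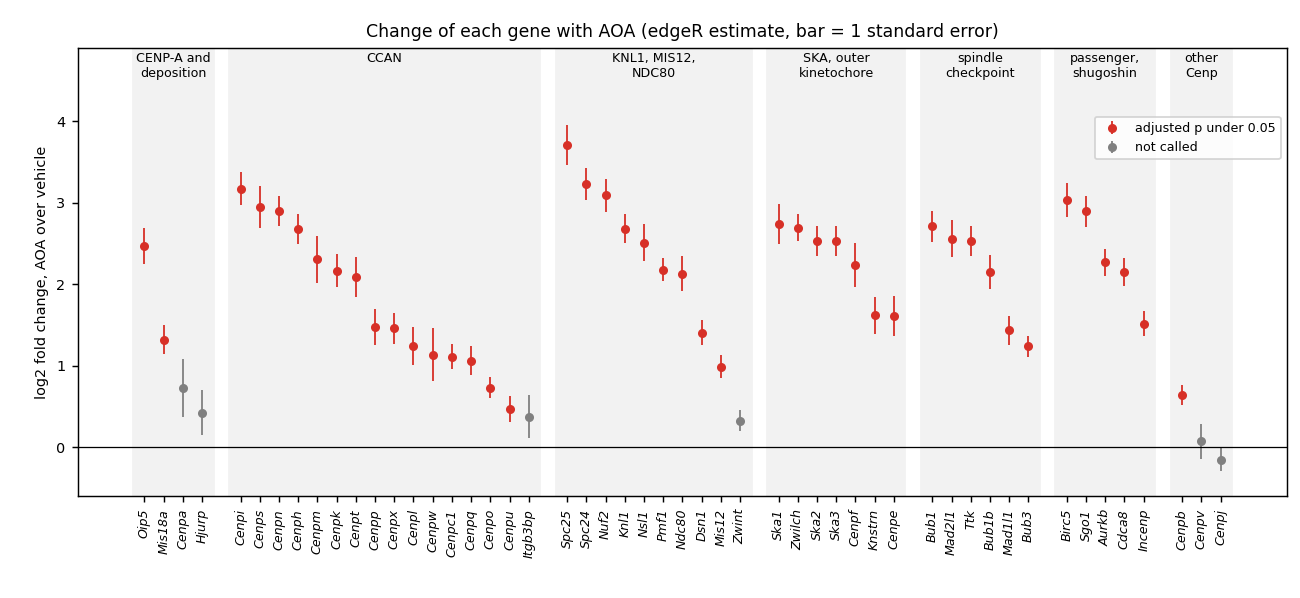
Log2 fold change of each of the 51 genes, AOA over vehicle, with bars of 1 standard error, grouped by role and ordered by size within a role. The 45 red points passed the test at an adjusted p under 0.05, and the 6 grey points (Cenpa, Hjurp, Itgb3bp, Zwint, Cenpv and Cenpj) did not.

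Levels per kilobase used 1 deposited length per gene and showed how the subunits of a complex stood to each other in each library. For Cdca8 that length was 1626 bases, against 2345 exon bases in GENCODE vM21, so levels compared between genes depend on the length used. How other lengths would change the ranges was not tested. AOA replicate 1 also differed from the other AOA libraries by gene length, as given below. The 4 subunits of the chromosomal passenger complex ranged 4.05, 2.42 and 2.46-fold from the lowest to the highest in vehicle replicates 1, 2 and 3, with Incenp highest and Birc5 lowest each time. In AOA replicates 1, 2 and 3 the range was 1.35, 1.24 and 1.17-fold. By the deposited lengths, the AOA libraries thus had the 4 transcripts at closer levels per kilobase than every vehicle library. In the NDC80 complex the range was 3.26, 2.59 and 2.76-fold with vehicle, where Spc25 was lowest, and 2.43, 2.04 and 1.93-fold with AOA, where Nuf2 was highest and Ndc80 lowest.

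The MIS12 and SKA complexes kept the same highest and lowest subunit in all 6 libraries. Pmf1 was above Nsl1 by 7.71, 6.63 and 4.66-fold with vehicle and by 4.74, 4.73 and 4.80-fold with AOA. Ska2 was above Ska1 by 3.74, 4.50 and 3.44-fold with vehicle and by 3.13, 3.79 and 3.21-fold with AOA. Among the 6 checkpoint genes the range was 12.5, 18.9 and 12.6-fold with vehicle and 12.94, 5.78 and 5.87-fold with AOA. The groups overlapped in these 3 sets and did not overlap in the passenger and NDC80 complexes. These sets were put side by side after their values had been seen, and an exact permutation test of 3 against 3 libraries cannot give a p below 0.1, so no test is given. At AOA, the highest mean levels per kilobase of the 51 genes were those of Mad2l1 (126 CPM per kilobase, SD 38.6, n = 3), Bub3 (105, SD 4.74) and Cenpa (103, SD 22.7), which differed by less than the spread of Mad2l1. With vehicle they were those of Cenpa (62.2 CPM per kilobase, SD 29.9), Bub3 (44.4, SD 3.86) and Incenp (31.3, SD 4.10).

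**Figure D4:**
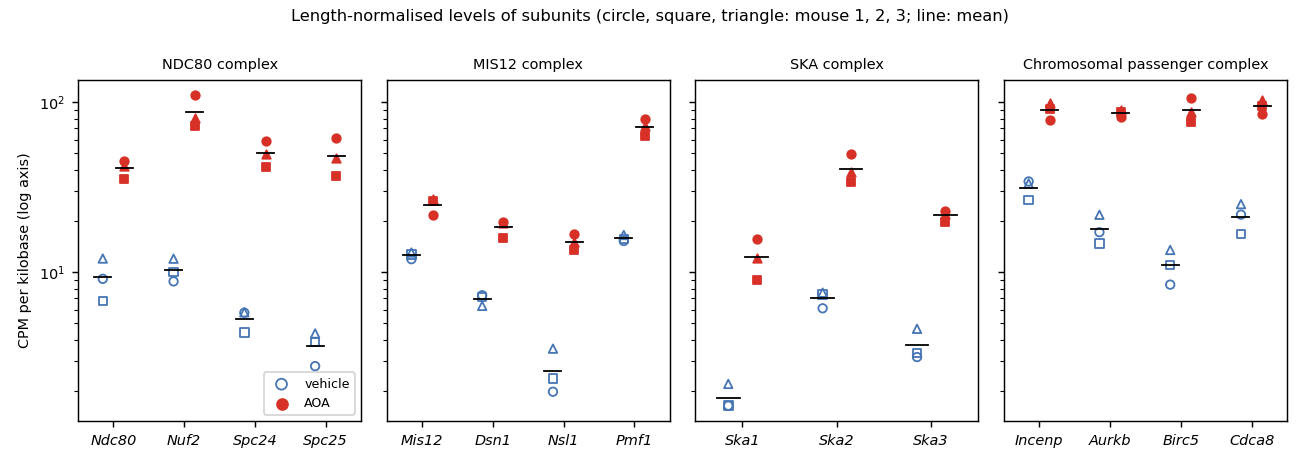
Level in CPM per kilobase (log axis) of the subunits of 4 complexes, with vehicle libraries as open blue and AOA libraries as filled red symbols, 1 shape per mouse, and a line at the mean of 3 libraries. By the deposited gene lengths, the 4 passenger complex subunits lie at nearly 1 height with AOA (1.17 to 1.35-fold from lowest to highest). With vehicle they spread over 2.42 to 4.05-fold. Another length for a gene would move its height.

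The libraries of a group differed from each other in a patterned way across the 51 genes. The ratio of AOA replicate 1 to the mean of AOA replicates 2 and 3 was lower in longer genes. Across the 51 genes the log2 ratio and log2 gene length had a Pearson r of -0.53 and a Spearman rho of -0.49, and across all 11759 tested genes r was -0.49 and rho -0.50. Genes share these libraries and are not independent replicates. The ratio was 0.604 in Cenpe, 0.635 in Cenpf and 0.693 in Bub1b, and it was 1.75 in Cenpw, 1.63 in Mad2l1, 1.51 in Oip5 and 1.47 in Spc25. In Hjurp, which is longer than Cenpe, it was 1.06. Without AOA replicate 1, 43 of the 51 genes rose, against 25.1% of all tested genes, and the log2 fold changes of Cenpf, Cenpe and Spc25 were 2.42, 1.82 and 3.50. The log2 fold change over all 6 libraries was little related to length (r = -0.11 across the 51 genes, -0.06 across all tested genes).

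Vehicle replicate 3 was the highest vehicle library for 30 of the 51 genes (29.1% of all tested genes), and AOA replicate 2 was the lowest AOA library for 37 (33.4% of all) and AOA replicate 3 for 1 (26.7% of all). Vehicle replicate 1 was the lowest vehicle library for 25 of the 51 genes (32.2% of all), and vehicle replicate 2 for 21 (41.3% of all), while vehicle replicate 2 was the highest for 14 (42.2% of all). Of the 11 members in the G2/M list of Seurat, a list of genes used to score late cell cycle phases, vehicle replicate 2 was the lowest vehicle library for 9. Of the 39 members in neither the G2/M nor the S list of Seurat it was the lowest for 12. It was at 0.445 of the mean of the other vehicle libraries in Hjurp, at 0.494 in Cenpw, at 0.501 in Cenpm and at 0.575 in Cenpl. In other genes it was above that mean, at 1.71 times in Cenpt, 1.47 in Itgb3bp, 1.33 in Cenpv and 1.31 in Cenps. Without vehicle replicate 2, 46 of the 51 genes rose, against 29.6% of all tested genes. With AOA, 9 of 11 G2/M members rose at a median log2 fold change of 2.24 and 35 of 39 members of neither list at a median of 2.09, and Cenpu was the only S member. The difference between these classes was not tested. Genes at lower CPM with vehicle tended to have larger log2 fold changes (r = -0.42 and rho -0.42 across the 51 genes, -0.07 and -0.07 across all tested genes), where the vehicle libraries enter both measures.

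**Figure D5:**
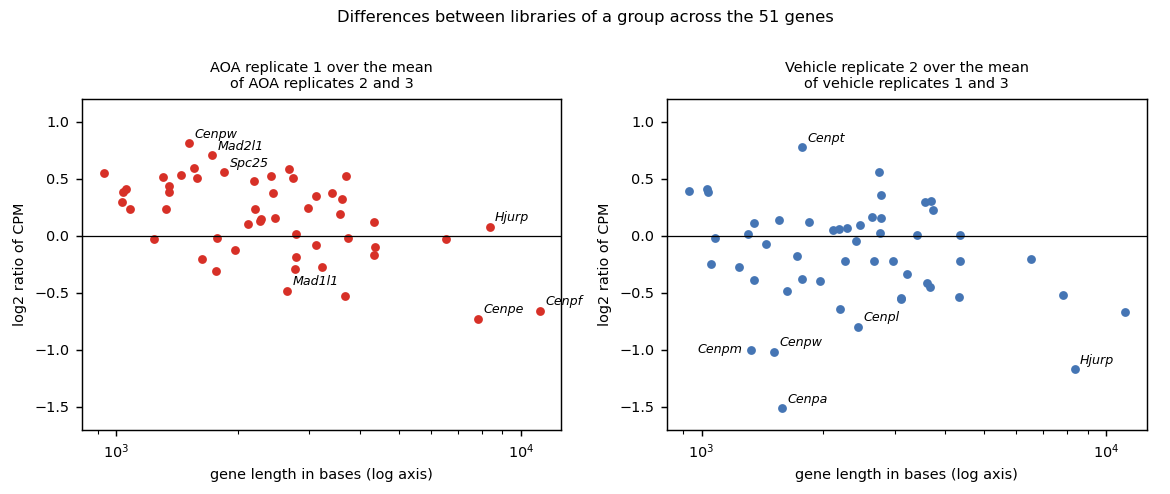
Log2 ratio of CPM between libraries of a group against gene length in bases (log axis), 1 point per gene, for AOA replicate 1 over the mean of AOA replicates 2 and 3 (left) and vehicle replicate 2 over the mean of vehicle replicates 1 and 3 (right). Long genes such as Cenpe and Cenpf lie below 0 on the left (r = -0.53 across the genes), but the long gene Hjurp does not (ratio 1.06). Cenpa and Hjurp are the lowest on the right (0.35 and 0.445 as ratios).

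Other genes of the same pathway also rose. Of 33 further kinetochore and checkpoint genes tested, 25 rose (75.8%, against 26.2% of all tested genes) and 1 fell (3.03%, against 26.8%), with a median log2 fold change of 1.32. With the mouse as a replicate block 24 rose, without Bod1 (edgeR adjusted p = 0.0427, and 0.0618 with the block). Kntc1, the ROD subunit that works with Zwilch, rose by 2.82 (SE 0.21), from 13.7, 16.1 and 19.7 CPM to 88.3, 121 and 142 CPM. Trip13, an ATPase that remodels MAD2, rose by 2.71 (SE 0.22), and the mitotic kinase gene Plk1 by 2.42 (SE 0.20). Ppp2r5c, a regulatory subunit of the PP2A phosphatase, was at 471, 371 and 493 CPM with vehicle and at 332, 310 and 329 CPM with AOA, and fell by 0.46 on the log2 scale (SE 0.15, edgeR adjusted p = 0.0303). Its call was lost without vehicle replicate 1 or 3 or AOA replicate 2 or 3 (edgeR adjusted p between 0.0880 and 0.151).

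The anaphase-promoting complex is the target of the checkpoint, and its activators and partners were listed with it. Of 19 genes 15 rose and 0 fell at an adjusted p under 0.05, by edgeR, DESeq2 and limma. The count of genes that fell was also 0 at an unadjusted p under 0.05. The median log2 fold change was 0.68. The 15 genes are 78.9% of the list, against 26.2% of all tested genes higher and 26.8% lower. Those that changed most were Fbxo5, the gene of the inhibitor EMI1 (2.78, SE 0.17), Ube2c, the gene of a ubiquitin-conjugating enzyme (2.33, SE 0.24), and Cdc20, the gene of the activator that the checkpoint captures (2.19, SE 0.20), which also counts among the 33 genes above. Cdc20 was at 39.6, 26.3 and 44.6 CPM with vehicle and at 170, 157 and 176 CPM with AOA.

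Cohesin holds sister chromatids together until anaphase. Of 16 genes 9 rose (56.2%, against 26.2% of all tested genes) and 4 fell (25.0%, against 26.8%, so near the share over all genes), with a median log2 fold change of 0.46. With the mouse as a replicate block 8 rose, without Stag1 (edgeR adjusted p = 0.0337, and 0.0550 with the block). The genes that rose most act in S phase and mitosis: Esco2, an acetyltransferase of cohesin (3.39, SE 0.20), Cdca5, the gene of sororin (2.71, SE 0.17), and Espl1, the gene of the protease separase that cuts cohesin (2.42, SE 0.22). Pttg1 encodes securin, the inhibitor of separase. It was at 28.5, 28.5 and 28.2 CPM with vehicle and at 13.8, 14.1 and 13.9 CPM with AOA, and fell by 1.03 on the log2 scale (SE 0.14, edgeR adjusted p = 0.000315). Separase and its inhibitor thus changed in opposite directions, with groups that did not overlap in either gene. The other genes that fell were Nipbl (-0.75, SE 0.16) and Mau2 (-0.71, SE 0.12), which encode the cohesin loader, and Hdac8 (-0.73, SE 0.18), a deacetylase of cohesin.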

How the data were processed

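RNA of 6 cultures was sequenced as stranded, paired-end messenger RNA libraries. The authors deposited raw counts of uniquely mapped reads per gene, aligned with STAR at default settings, with a gene length. The submitters' processing notes name bcl2fastq, STAR, featureCounts, DESeq2 and mm10. Annotation, tool versions, strand setting and gene filter: not given in the sources used here. Groups follow the treatment labels, and the mouse donor labels give both groups the same 3 animals.

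The counts were fitted with edgeR 4.0.16 in R 4.3.3: filterByExpr with a minimum count of 10, TMM, the robust quasi-likelihood test, two-sided, and Benjamini-Hochberg adjustment over all 11759 tested genes, and genes under 0.05 were called. CPM is scaled by TMM library sizes, and a level per kilobase is CPM divided by the deposited length. The main fit had no term for the mouse, so its p-values are unpaired. With 3 cultures per group they rest on the spread between these cultures, with information on spread shared across genes. Alternatives were a fit with the mouse as block, leaving out each library in turn, DESeq2 1.42.0, voom of limma 3.58.1, scaling by median-of-ratios or by total counts alone, either no filter or 10 CPM in at least 3 libraries, and calls that also needed an absolute log2 change of 1 or more. Deviations from the group means correlated within each mouse at r = 0.0868, 0.189 and 0.195 across genes. The steps were tested on simulated data.

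All 51 genes that the symbol rule takes are named, grouped by role. Of each other list at most 3 called genes per direction with the largest absolute log2 fold change are named, and Bod1, Stag1, Mau2 and Anapc16 were named besides, after their values had been seen. Of 37 listed further kinetochore genes 3 were already members and 1 was not analysed here. The members and lists were chosen with earlier results of these data known. G2/M and S lists came from Seurat 5.3.0. Promoter windows are the first RefSeq window of each gene, searched on both strands (stretches of 8 genes are printed), and exon overlaps came from GENCODE vM21. Tables and plots used Python 3.11.15, pandas 2.3.3 and matplotlib 3.10.9.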

Additional observations from a re-analysis of the deposited data

How the results depend on the processing

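The number of the 51 genes that rose was 45 to 46 over the other fits and 43 to 46 with each library left out, and 0 fell under any alternative. Of all tested genes 26.4% to 28.7% rose over the other fits and 21.3% to 29.6% with each library left out. The median log2 fold change of the 51 genes was 2.04 to 2.24 with each library left out. The mouse as a replicate block also gave 45 genes. Under the block the log2 fold change of Cenpa was 0.85 and passed, as it did by DESeq2 (0.74), and that of Cenpu was 0.47 and did not. The block changed no other call among the 51 genes, and in the other lists it lost Bod1 and Stag1. With each library left out, the log2 fold change was 0.42 to 0.54 for Cenpu, 0.82 to 1.40 for Cenpw, 0.28 to 0.44 for Zwint and -0.54 to -0.36 for Ppp2r5c. That of Zwint was 0.36 and passed with no low-count filter. That of Cenpv, not called in any fit, was -0.031 to 0.26 and was below 0 without AOA replicate 1. Where calls also needed a log2 change of 1 or more in size, all genes called higher numbered 1418 and lower 1663, other kinetochore genes lower 0, cohesin genes higher 4 and lower 1, and anaphase-promoting complex genes higher 8. With each library left out, other kinetochore genes lower numbered 0 to 1, and anaphase-promoting complex genes lower 0 to 1, where the single gene was Anapc16 (-0.42) without AOA replicate 1. The cause of these shifts was not tested. With the upstream part of the promoter windows alone, 13.3% of members held CHR letters and 8.89% held CHR and CCAAT. Other scalings moved the median log2 fold change of all genes by less than 0.1. Precision is limited by 3 cultures per group.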
